A study of Mus musculus with 12 samples.

Results

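Tumors at the site of the pituitary gland were profiled in 3 of the 12 samples, which were chosen by their tissue label, "tumor - brain". The other 9 samples were pancreatic tumors. All 12 came from untreated LSL-MYCN;hGFAP-Cre mice, double transgenic animals of a mixed background (FvB/129 SvJ x B6) in which Cre recombinase, driven by the human GFAP promoter, removed a stop cassette in front of MYCN and a luciferase reporter. The transgene was therefore switched on in any cell that had used that promoter, which is active in neural progenitors as well as in glia. The age and sex of the mice, and whether any of them gave both a pituitary and a pancreatic tumor, are not in the labels, and each tumor was measured on 1 array. The 3 tumors keep the numbers of their labels, 6, 7 and 8, and wherever 3 values are given without further words they are log2 signals in that order.

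The anterior pituitary makes its hormones in separate cell types. Somatotrophs make growth hormone, lactotrophs prolactin, thyrotrophs and gonadotrophs the glycoprotein hormones, which share the alpha subunit encoded by Cga, and corticotrophs the precursor of ACTH, encoded by Pomc. The transcription factor POU1F1 is needed for the somatotroph, lactotroph and thyrotroph lineages, while Six6, Lhx3 and Pitx1 act earlier in the formation of the gland, and the hypothalamus lies directly above it.

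Signals were available for 18193 genes, each represented by 1 probe set. The array median, close to 5.6 in all 3 tumors (5.61, 5.53 and 5.60), served as a floor below which a signal was not told apart from background, so that a fold measured against a value near it can understate the difference in RNA. A fold given for a tumor that stood apart is the distance to the nearer of the other tumors. In all 3 tumors together, 11072 genes were above it (60.9% of those measured). RNA quality differed between the samples. The 3′ minus 5′ difference of the Actb control probe sets was 1.51, 2.07 and 2.20 and that of the Gapdh control probe sets 0.08, 0.96 and 0.80, lowest in tumor 6 for both. Bacterial RNAs that are added before labeling read highest in tumor 7 in 24 of 24 probe sets, with medians of 7.57, 8.88 and 8.02, whereas RNAs added at hybridization differed by at most 0.57. Tumors 6 and 8 carried transcripts of brain tissue that were lower in tumor 7, many of them at or near background there, and these are described with the variable genes. In bulk samples, fewer cells of a type and less RNA per cell cannot be told apart. With 1 array per tumor and no groups among the tumors, no test was possible, and every difference is a difference between these 3 arrays.

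Growth hormone and prolactin dominated the profiles. Gh was at 14.65, 14.80 and 14.87, and Prl at 15.10, 15.04 and 14.10. Prl gave the highest signal of all genes in tumors 6 and 7 and Gh the highest in tumor 8, and Prl still ranked 13 in tumor 8. These values sit at the top of the scale, where the highest signals of the arrays were 15.10, 15.04 and 14.92, so differences among them may be compressed. The other 3 probe sets for Gh read 14.59, 14.78 and 14.92, then 13.98, 14.16 and 14.17, then 14.10, 14.56 and 14.74. In the 9 pancreatic tumors Gh lay between 5.64 and 6.27 and Prl between 4.36 and 8.22. The 4 markers by which the tissue was checked, Gh, Prl, Cga and Six6, were above the floor in all 3 tumors and higher there than in each of the 9 pancreatic tumors, where Cga lay between 4.52 and 5.26.

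The region upstream of Prl, on the plus strand of chromosome 13 in GRCm38.p6 (RefSeq), carries the core sequence to which POU1F1 binds, and it is shown because Prl shares with Gh and Tshb the dependence on this factor. The core was searched as ATGNATA on both strands in the 250 bases before the transcription start. Capitals mark the matches, which begin at positions -148 and -47 relative to the start and lie on opposite strands.
Prl, chr13:27057396-27057455: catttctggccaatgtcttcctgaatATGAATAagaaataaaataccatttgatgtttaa
Prl, chr13:27057497-27057556: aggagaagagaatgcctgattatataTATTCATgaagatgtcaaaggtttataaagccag
At least 1 match was present in 2603 of 32851 such windows (7.92%) and at least 2 matches in 415 (1.26%). The windows of Cga, Tshb, Lhb, Fshb and Pomc held 0 matches. No window was available for Gh, which was therefore not searched. A match describes the letters of a window and is not evidence of binding in these tumors.

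Of the remaining hormone genes, Cga and Tshb set tumor 7 apart. Cga, the common alpha subunit, was at 11.62, 14.70 and 11.04, so that tumor 7 was 8.46-fold above the nearer of the others. Tshb, the thyrotropin beta subunit, followed the same order at 9.31, 12.51 and 8.20, with tumor 7 ahead by 9.25-fold. The 2 subunits of thyrotropin were therefore highest in the same tumor, while both were above the array median in all 3. Pomc was at 10.49, 13.73 and 12.41, and its second probe set gave 10.85, 13.25 and 11.85, lowest in tumor 6 in both cases. The gonadotropin beta subunits had weaker signals. Fshb, the follicle-stimulating hormone subunit, was at 3.27, 7.78 and 6.07, below the floor in tumor 6. Lhb, the luteinizing hormone subunit, was at 5.43, 6.45 and 5.39 and passed the floor in tumor 7 alone among the 3. Of the 7 hormone genes, tumor 7 had the highest value in 5, against 44.0% of the 13011 genes with a value above the floor in any tumor. All 7 were above the floor in tumor 7, 5 in tumor 6 and 6 in tumor 8.

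**Figure D1:**
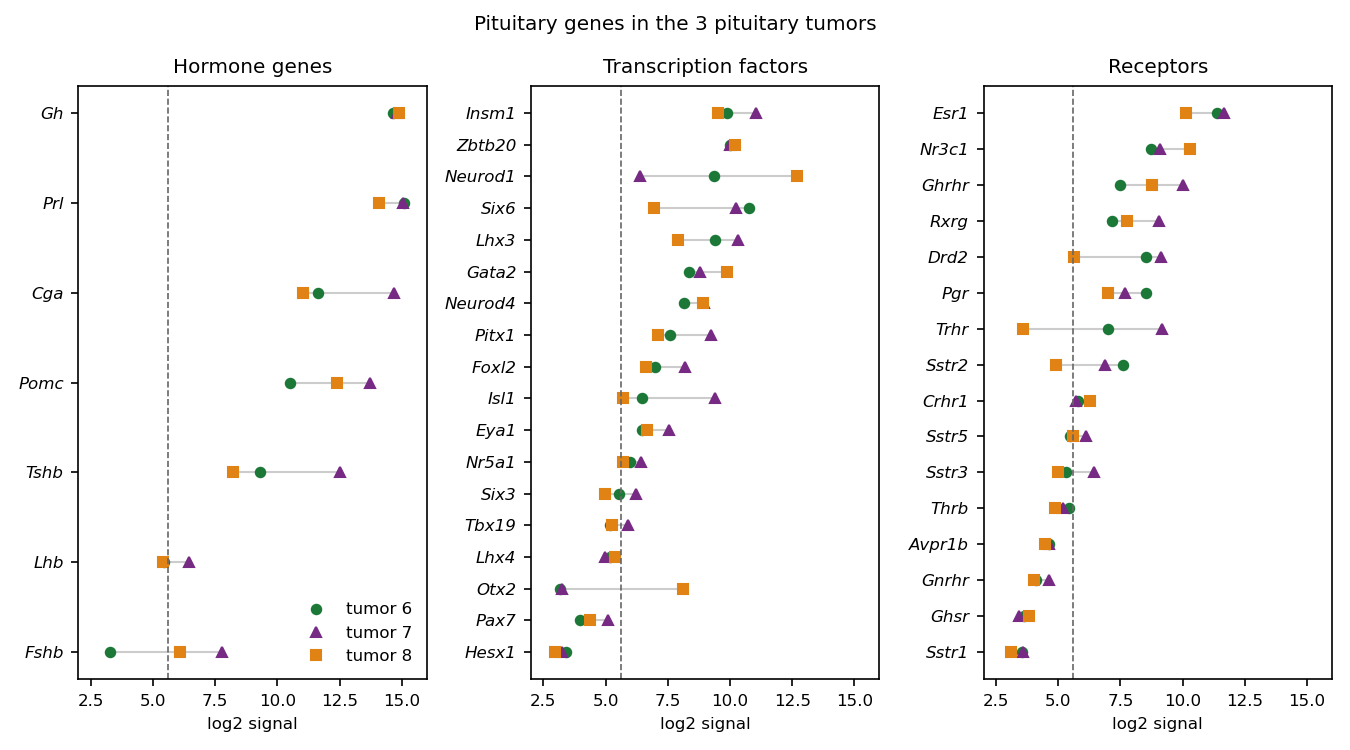
Log2 signal of pituitary hormone genes, lineage transcription factors and receptors in tumors 6 (circles), 7 (triangles) and 8 (squares), 1 array each, with genes ordered by their mean. The dashed line is the array median and grey bars span the 3 values. Gh lies above 14.6 in all 3, Cga and Tshb are highest in tumor 7, and Otx2 and Neurod1 are highest in tumor 8.

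Transcription factors of the pituitary lineages were measured for 18 of 21 genes. Of these, 12 were above the floor in all 3 tumors, near the 60.9% of all genes. Six6, a homeobox factor of the early gland, was at 10.78, 10.22 and 6.95, which put tumor 8 9.65-fold below the others, although its value there was still above the 3.33 to 3.98 of the pancreatic tumors. Lhx3, required for the gland to form, was at 9.39, 10.32 and 7.92. Pitx1, a factor of all anterior lineages, was at 7.59, 9.25 and 7.11. A second Pitx1 probe set was at 6.96, 9.00 and 7.52. Six6 and Lhx3 were lowest in tumor 8, while the Pitx1 probe sets differed in which of tumors 6 and 8 was lowest. Insm1, a zinc finger factor of endocrine differentiation, was at 9.87, 11.05 and 9.50, and Zbtb20, which acts in lactotrophs, was at a like level of 9.99, 10.01 and 10.19. Gata2, a factor of thyrotrophs and gonadotrophs, had its highest value in tumor 8 (8.35, 8.81 and 9.87), where Tshb was lowest. A second Gata2 probe set was at 5.53, 6.24 and 6.21, so that tumor 8 was not highest there. Isl1, a further factor of these lineages, was at 6.47, 9.38 and 5.71, 7.52-fold above the others in tumor 7, and its second probe set gave 6.22, 8.79 and 5.80. Foxl2, which acts on gonadotropin genes, was at 7.00, 8.17 and 6.63, also highest in tumor 7.

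Neurod1 and Otx2 ran the other way. Neurod1, which acts in corticotrophs and in several groups of neurons, spanned 9.35, 6.37 and 12.71 and stood apart both above in tumor 8 and below in tumor 7, with 8.50, 5.14 and 11.86 from its second probe set. Otx2, a homeobox factor of the head, was at 3.15, 3.24 and 8.10, 29.0-fold higher in tumor 8 and below the floor elsewhere. Both genes are also used in brain tissue, and tumor 8 carried transcripts of the cerebellum and choroid plexus, whose part in these values was not tested. Tbx19, the corticotroph factor, was at 5.19, 5.89 and 5.26 and Nr5a1, the gonadotroph factor, at 5.96, 6.43 and 5.68, all near the floor. Hesx1 and Lhx4 were below it in all 3 tumors, and so was the probe set used for Pax7, while a second Pax7 probe set was at 3.45, 5.91 and 3.41, above the floor in tumor 7. Over the whole list, the median of the differences from each gene's mean was -0.26, 0.53 and -0.23, against -0.01, 0.06 and -0.04 for all 13011 genes above the floor in any tumor. The higher place of tumor 7 depended on the probe sets used. The list median of tumor 7 exceeded the mean of the other 2 list medians by 1.10, and by 0.02 where all probe sets of a gene were averaged.

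Receptors through which the pituitary is controlled were led by Esr1, the estrogen receptor, at 11.39, 11.66 and 10.14. Nr3c1, the glucocorticoid receptor, was at 8.73, 9.07 and 10.28. Ghrhr, the receptor for growth hormone-releasing hormone on somatotrophs, was at 7.47, 10.00 and 8.75. Tumor 8 was set apart by lower values of receptors of lactotrophs and thyrotrophs. Drd2, the dopamine receptor that restrains prolactin, was at 8.51, 9.13 and 5.64, with tumor 8 7.26-fold below. Trhr, the thyrotropin-releasing hormone receptor, was at 7.00, 9.18 and 3.58, below the floor in tumor 8 and 4.53-fold above the others in tumor 7. A second Trhr probe set was at 3.34, 3.35 and 3.28 and thus gave no signal in any tumor. Sstr2, the somatostatin receptor found on somatotrophs, was at 7.59, 6.87 and 4.90, while Gnrhr, the gonadotroph receptor, was at 4.10, 4.62 and 4.02. Of the 16 receptors, 7 were above the floor in all 3 tumors, against 60.9% of all genes, and 5 in none. Among all 18193 genes, 13011 were above it in at least 1 tumor. Tumor 7 had the highest value in 7 of the 11 receptors above the floor in any tumor, against 44.0% of all such genes.

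Genes of pituitary stem and folliculostellate cells gave no common order. Sox2, the stem cell factor, was at 8.29, 7.31 and 8.96, and Cyp2f2, a cytochrome of folliculostellate cells, at 7.18, 9.83 and 6.23, highest in tumor 7 by 6.28-fold. S100b was at 10.63, 5.40 and 11.14 and Sox9 at 7.34, 5.60 and 7.84, the order that astrocyte genes took, and both also stand in the astrocyte list. Of the 8 genes, 7 were above the floor in all 3 tumors, against 60.9% of all genes. The intermediate lobe could be read from 2 of its 4 listed genes, Drd2 and Pax7, the latter at 3.98, 5.09 and 4.36 on the probe set used.

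The machinery of dense-core secretory granules was present in every tumor. All 14 measured genes were above the floor in all 3, against 60.9% of all genes, with list medians of 12.82, 11.93 and 11.68. Chgb, a granin of the granule core, was at 14.82, 14.67 and 13.41 and ranked among the 15 genes of highest mean signal. Chga, chromogranin A, was at 12.27, 11.95 and 10.76, and Scg2, another granin, at 14.00, 12.87 and 11.25. The granins were lowest in tumor 8 in each case, by up to 2.75 on the log2 scale for Scg2. Resp18, a protein of endocrine granules, differed less (12.79, 12.54 and 12.33), as did Cpe, the carboxypeptidase that trims prohormones (14.30, 14.06 and 13.78). Synaptic genes had another order, with Snap25, a fusion protein of vesicles, at 13.66, 11.72 and 13.67 and Vamp2, its partner, at 10.62, 9.15 and 10.25, both lowest in tumor 7.

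Peptide hormones of the pancreatic islet were read in the same arrays. Sst, somatostatin, was at 11.93, 10.51 and 11.91, and Iapp, islet amyloid polypeptide, at 12.72, 11.39 and 12.08, against at least 13.65 for Sst and 13.71 for Iapp in the pancreatic tumors. Gcg, glucagon, was at 6.38, 5.34 and 5.81 and Ins2, insulin, at 5.97, 6.25 and 5.48, near the floor. Ppy, pancreatic polypeptide, was at 5.94, 7.49 and 6.34. Of the 11 islet genes measured, 4 were above the floor in all 3 tumors, against 60.9% of all genes, and 4 in none. Among all 18193 genes, 13011 were above it in at least 1 tumor. List medians were 5.97, 5.38 and 5.81, where the pancreatic tumors ranged from 7.16 to 12.35. Sst is also a hypothalamic peptide, and Cckar, a cholecystokinin receptor, was at 3.45, 3.71 and 3.43.

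The MYC family was examined because MYCN drives the model. Mycn was at 6.17, 6.45 and 6.52, less than 1 unit above the array median, and its other probe sets gave 6.74, 5.10 and 5.84 and 4.87, 4.83 and 4.68. These probe sets were designed against the mouse gene, and whether they read the transgene was not tested. Myc was at 5.46, 5.58 and 5.04, at the floor. The partner Max was at 7.76, 7.98 and 8.53, and its other partners Mnt and Mxi1, which oppose MYC, were at 9.03, 9.39 and 9.33 and at 9.92, 9.48 and 10.43. Of the 10 genes of the family, 8 were above the floor in all 3 tumors, against 60.9% of all genes. None of the 10 was variable, against 6.83% of all genes. Genes that MYC proteins are known to drive, mainly of ribosome assembly, were above the floor in all 3 tumors in 24 of 24 cases. The share over all genes was 60.9%. Tumor 7 had the highest value in 21 of the 24, against 44.0% of all genes above the floor in any tumor. Ncl, nucleolin, was at 11.04, 11.82 and 11.76, Npm1, nucleophosmin, at 12.39, 13.11 and 12.93, and Odc1, the first enzyme of polyamine synthesis, at 12.67, 13.34 and 11.43. The differences were small, with list medians of -0.27, 0.31 and -0.06 around each gene's mean, and the exceptions to the order were Ldha, Tfrc and Rrp9, which were highest in tumor 6.

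Beyond the pituitary hormones, the highest signals belonged to protein synthesis and respiration. Among the 100 genes of highest mean, which ran from 13.03 to 14.77, 35 encoded ribosomal proteins and 12 proteins of oxidative phosphorylation. The 15 at the top were Gh, Prl, Tpt1, Eef1a1, Rpl38, Rps29, Cox6a1, Rps28, Rpl41, Gnas, Chgb, Rpl37a, Rps14, Itm2b and Rpl13a. The rank of a signal is not a rank of transcript amount, since probe sets differ in brightness. Gnas, the stimulatory G protein alpha subunit that carries the signal of growth hormone-releasing hormone, was at 14.48, 14.51 and 14.04. Eef1a1, an elongation factor, was at 14.58, 14.52 and 14.56. The 100 genes had a median range of 0.30 over the tumors, against 0.60 for all 11072 genes above the floor, 39 of them were at a like level and 1 was variable.

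A like level, meaning above the array median in all 3 tumors with a range of at most 0.25 (1.19-fold), was found for 1537 genes (8.45% of those measured). Like levels were not a matter of strong signal alone, as they were found for 17.9%, 11.7%, 13.1% and 12.8% of the genes above the floor in 4 bins of equal size by mean signal, the weakest bin first. Among the 910 genes with a mean above 10.95, the most alike was Atp5j, a subunit of the mitochondrial ATP synthase, with a range of 0.03 around 12.46. Atxn10 and Actr3, the latter a subunit of the actin-nucleating Arp2/3 complex, followed with ranges of 0.04. Rps3a1, Rps24 and Rps4x, proteins of the small ribosomal subunit, had ranges of 0.05. Map1b, a microtubule protein of neurons, the mitochondrial phosphate carrier Slc25a3 and Bex3 had the same range. These ranges are those of the probe sets used. A further Atxn10 probe set was at 11.41, 10.95 and 11.26 and a further Actr3 probe set at 10.62, 10.39 and 10.70, while others of both genes lay closer together. For Map1b the like level held for the probe set used alone. Its other probe sets were at 7.66, 6.58 and 7.66 and, below the floor, at 5.32, 4.58 and 4.69, both lowest in tumor 7. Atp6v0d1, a subunit of the proton pump that acidifies granules, had a range of 0.06. Ribosomal protein genes of the list were at a like level in 6 of 12, against 12.8% of the brightest bin. Oxidative phosphorylation genes were so in 2 of 12, near that share. In either list 0 genes were variable, against 6.83% of all genes. Over the 11072 genes above the floor, the median SD was 0.31 among the 3 pituitary tumors and 0.53 among the 9 pancreatic tumors. These genes and their probe sets were chosen by the pituitary values alone, and the numbers of tumors differ. The 2 SDs therefore do not show which site was more uniform.

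Variable genes, with a range of at least 2 on the log2 scale (4-fold) and a highest value above the floor, numbered 1243 (6.83%). In 680 of them at least 1 tumor stood apart from both others by this distance, in 36 genes both upwards in 1 tumor and downwards in another. The main direction was a lower value in tumor 7. Tumor 7 was below both others in 383 genes (2.11% of those measured), with a median gap of 2.83, and in 213 of these it was not above the floor. The opposite, tumor 7 above both, was found for 58 genes (0.319%). Tumor 6 was above both others in 101 genes (0.555%) and below both in 17 (0.0934%). Tumor 8 was above both in 111 genes (0.61%) and below both in 46 (0.253%). Tumors 6 and 8 were both above tumor 7 in 827 of the 1243 variable genes (66.5%), whereas tumor 7 was lowest in 32.0% of all genes above the floor in any tumor. Pearson's r across the 45037 probe sets was 0.965 for tumors 6 and 8, 0.949 for tumors 6 and 7 and 0.937 for tumors 7 and 8. The number of genes at least 4-fold apart was 339, 756 and 856 for the same pairs. Without tumor 7 the number of genes at least 4-fold apart is thus 339 in place of 1243. These are descriptions across probe sets and genes, which are not independent of each other.

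**Figure D2:**
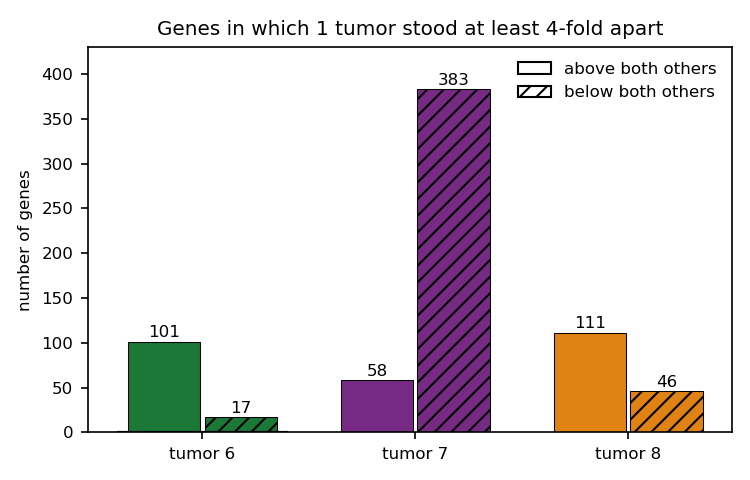
Number of genes in which 1 of the 3 pituitary tumors was at least 4-fold above (plain bars) or below (hatched bars) both other tumors, by tumor, among 18193 genes. The largest group is the 383 genes with tumor 7 below both others, and the smallest the 17 genes with tumor 6 below both.

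The genes with the largest gaps below both others in tumor 7 were genes of neurons and glia. Gad1, the enzyme of GABA synthesis, was at 11.32, 3.05 and 12.52, the largest gap of the kind at 309-fold. Vsnl1, a neuronal calcium sensor, was at 11.91, 3.74 and 11.76. Mbp, myelin basic protein, was at 14.07, 6.18 and 13.61, a gap of 171-fold. Of the other 7 Mbp probe sets, 5 also had tumor 7 lowest and 2 did not, at 7.90, 8.21 and 7.20 and at 8.97, 9.26 and 8.50. Mobp, a further myelin protein, was at 12.33, 3.37 and 11.10, and Slc1a3, the glutamate transporter of astrocytes, at 11.80, 5.07 and 12.51. In tumor 7 these genes were at the levels of the pancreatic tumors, which for Gad1 lay between 2.92 and 3.41.

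Whole lists of brain cell types showed the same split. All 14 astrocyte genes were variable, against 6.83% of all genes, and tumor 7 stood below both others in 13 of them, against 2.11%. Over the list, medians were 10.30, 5.44 and 10.55, with tumor 7 inside the 4.76 to 7.09 of the pancreatic tumors. Gfap, the intermediate filament whose promoter drives Cre in this model, was at 9.38, 3.33 and 7.87, and its other probe sets gave 8.12, 4.10 and 6.96 and 8.02, 5.64 and 6.60. Aldoc, an aldolase of astrocytes, was at 13.70, 9.95 and 14.46. Oligodendrocyte genes had list medians of 8.90, 5.91 and 8.60, with tumor 7 apart below in 8 of 14. Neuron genes had list medians of 10.57, 5.82 and 10.00, with tumor 7 apart below in 9 of 14. Thy1, a surface protein of neurons and other cells, went against its list at 12.07, 12.18 and 10.47. Map2, a dendrite protein, had the order of the list with a smaller gap on the probe set used (12.00, 10.68 and 11.60), while another read 6.47, 6.98 and 8.00. Precursors of oligodendrocytes were represented by 5 genes, all highest in tumor 6, among them Pdgfra, their growth factor receptor, at 8.36, 4.86 and 7.15. Tumor 7 was not without signal for these lists. There 6 of 14 astrocyte genes, 8 of 14 oligodendrocyte genes and 8 of 14 neuron genes were above the floor. The share that brain tissue had in any other difference was not tested.

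**Figure D3:**
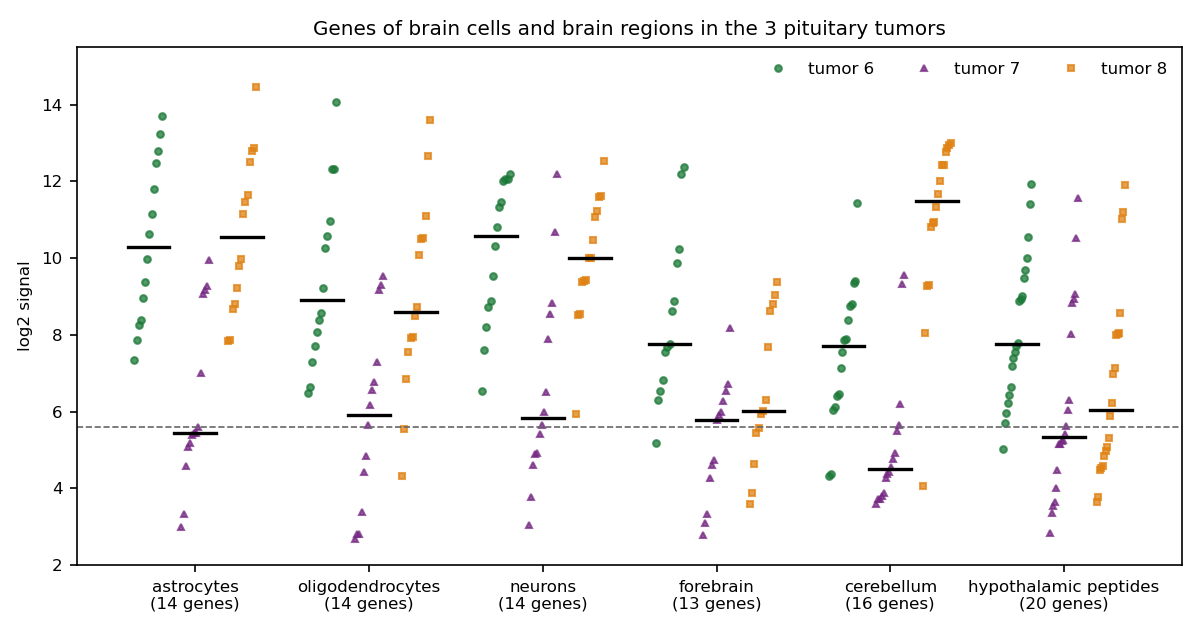
Log2 signal of genes of brain cell types and brain regions in tumors 6 (circles), 7 (triangles) and 8 (squares), 1 point per gene and tumor, with the number of measured genes under each list. Black bars are medians over the genes and the dashed line is the array median. Medians of tumor 7 lie near or below the dashed line in all 6 lists, cerebellar genes are highest in tumor 8 and forebrain genes in tumor 6.

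The brain transcripts of tumors 6 and 8 differed in their levels by region, though both tumors held genes of both regions described here. Most genes of the cerebellum list were highest in tumor 8. Gabra6, a GABA receptor subunit of cerebellar granule cells, was at 7.89, 4.38 and 13.00, 34.5-fold above the others in tumor 8, and its second probe set gave 4.60, 3.63 and 10.31. Pcp2, a Purkinje cell protein, was at 8.39, 4.56 and 12.86, and Cbln3, a granule cell partner of cerebellin, at 7.14, 3.73 and 11.66. Slc1a6, the glutamate transporter of Purkinje cells, was at 6.41, 4.28 and 10.91, and Gdf10, a growth factor of Bergmann glia, at 7.87, 4.76 and 12.01. In 13 of 16 cerebellar genes tumor 8 stood above both others, against 0.61% of all genes, and the list medians were 7.71, 4.49 and 11.49. The members outside this pattern were Calb1, a calcium-binding protein also found elsewhere in the brain, Rora, an orphan nuclear receptor, and Atoh1, the granule precursor factor, which was below the floor (4.32, 3.79 and 4.05). Tumor 6 was intermediate for most of these genes, with 14 of 16 above the floor. The list was drawn up after the values had been seen, so the agreement of its members is no independent evidence.

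Choroid plexus genes were likewise higher in tumor 8. Ttr, the thyroid hormone carrier that the plexus secretes, was at 11.39, 9.72 and 14.69, and its other 3 probe sets all had the same order. Kcnj13, a potassium channel of the plexus, was at 6.34, 4.90 and 9.51. Of 7 genes of choroid plexus and ependyma, tumor 8 was highest in 6, against 27.5% of all genes above the floor in any tumor. Ttr is also an islet and liver transcript and lay between 11.30 and 14.69 in the pancreatic tumors. The gene with the largest gap above the others in tumor 8 was none of these but Prss28, a serine protease, at 4.35, 4.62 and 11.44 (113-fold). Crtam, known as a surface molecule of cytotoxic lymphocytes, was at 4.69, 4.29 and 9.55, although the list median of leukocyte genes was lowest in tumor 8. Itga8, an integrin subunit, was at 4.99, 5.20 and 9.61. Each of the 3 was measured against values below the floor in tumors 6 and 7.

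Most genes of the forebrain and hypothalamic peptide lists were highest in tumor 6. Vxn, which had the largest gap, was at 9.54, 3.82 and 4.66 (29.2-fold). Nrgn, neurogranin of forebrain neurons, was at 10.23, 5.91 and 6.29 (15.3-fold), and Lhx2, a homeobox factor of the cortex and the hypothalamus, at 8.87, 3.33 and 4.62. Camk2a, a synaptic kinase, was at 12.18, 6.00 and 9.37, and Ddn, dendrin of forebrain dendrites, at 12.36, 4.74 and 8.62. Icam5, an adhesion molecule of the telencephalon, was at 9.87, 5.78 and 6.01. Tumor 6 stood above both others in 7 of 13 forebrain genes, against 0.555% of all genes, with list medians of 7.76, 5.78 and 6.01, and this list was also drawn up after the values had been seen. Neurod2 and Ppp1r1b, factors of cortical and striatal neurons, were highest in tumor 8 (7.76, 6.71 and 8.80, and 7.55, 6.53 and 9.03).

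Hypothalamic peptides had their highest value in tumor 6 in 16 of 19 genes above the floor in any tumor, against 28.5% of all such genes, and stood apart there in 8 of 20. Pmch, melanin-concentrating hormone of the lateral hypothalamus, was at 7.72, 3.55 and 3.78, and Vip, vasoactive intestinal peptide, at 8.93, 3.63 and 5.08. Crh, corticotropin-releasing hormone, was at 7.56, 2.84 and 4.57, and Avp, vasopressin, at 7.79, 5.25 and 4.84. Cck, cholecystokinin, was at 11.41, 4.02 and 8.05, 10.3-fold above the nearer tumor, and is also a peptide of the cerebral cortex. Vgf, a neuropeptide precursor of endocrine cells too, was highest in tumor 7 (10.54, 11.57 and 11.02), and Penk, the enkephalin precursor, was highest in tumor 8 (10.01, 8.03 and 11.19). Transcription factors of the hypothalamus gave little signal, with 7 of 10 not above the floor in any tumor and Lhx2 the variable one. Of all 18193 genes, 13011 were above the floor in at least 1 tumor. Genes of pituicytes and tanycytes, the glia of the posterior lobe and of the third ventricle floor, were above the floor in all 3 tumors in 2 of 8. The share over all genes was 60.9%. Among the 8, Crym, a thyroid hormone-binding protein, was at 9.06, 5.20 and 4.58. Dio2, the enzyme that activates thyroid hormone, which thyrotrophs also use, was at 10.32, 11.92 and 8.57.

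**Figure D4:**
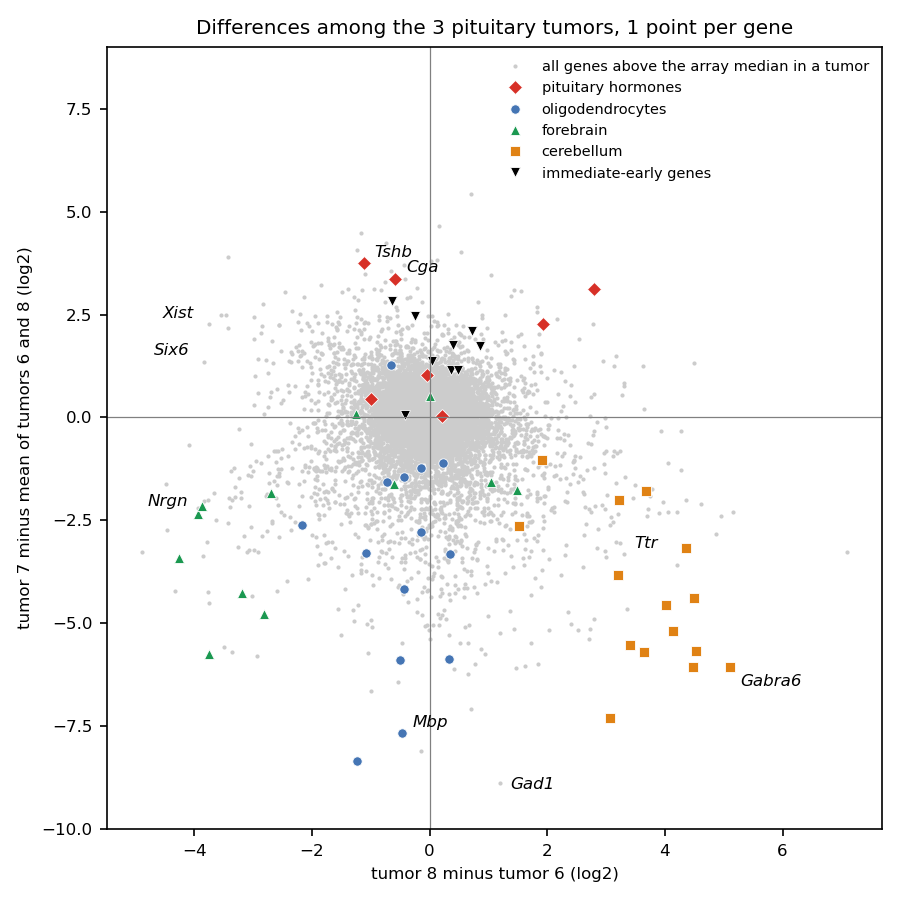
Each point is 1 gene above the array median in any tumor, placed by tumor 8 minus tumor 6 (horizontal) and tumor 7 minus the mean of tumors 6 and 8 (vertical), both as log2 differences. Members of 5 gene lists are colored. Cerebellar genes lie to the lower right, forebrain genes mostly to the lower left, oligodendrocyte genes mostly straight below the origin, and Tshb and Cga above it.

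Genes with the largest gaps above both others in tumor 7 included secreted proteins, receptors and transporters. Crisp3, a secreted protein of glands, was at 2.58, 8.35 and 3.28 (33.6-fold), and Agtr2, an angiotensin receptor, at 3.27, 8.01 and 3.43 (23.9-fold). Lcn2, an iron-binding lipocalin of inflamed tissue, was at 7.46, 11.36 and 6.30. Bmp4, a growth factor that is active in pituitary development, was at 7.10, 10.55 and 5.87, and Oca2, a melanosome transporter, at 7.29, 11.15 and 6.55. Apold1, an early-response gene of endothelium, was at 6.49, 10.31 and 6.52. In 21 of the 58 genes both other tumors were not above the floor, and 16 were above the floor in none of the 9 pancreatic tumors. Neither was particular to tumor 7. For the 101 genes with tumor 6 above both others these counts were 53 and 48. For the 111 genes with tumor 8 above both others they were 47 and 44. The shares over all genes were not counted. Immediate-early genes, which respond to stimulation and to handling of tissue within minutes, were highest in tumor 7 in 8 of 9 genes above the floor in any tumor, against 44.0% of all such genes. Egr1 was at 10.37, 12.70 and 10.12, Nr4a1, an orphan receptor that also acts on Pomc, at 10.07, 12.59 and 9.44, and Fos at 8.90, 11.06 and 9.76. Jun was the exception on the probe set used (9.06, 8.92 and 8.65), while its second probe set was highest in tumor 7 (8.69, 8.84 and 8.61). The part of tissue handling in these values was not tested.

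Tumor 6 was below both others in 17 genes. Pappa2, a protease that cleaves IGF-binding proteins, was at 6.53, 10.11 and 11.02 (12.0-fold), and Calcr, the calcitonin receptor, at 6.35, 10.00 and 9.12. St14, the membrane protease matriptase, was at 6.10, 9.16 and 9.72, and Cidea, a lipid droplet protein, at 6.42, 9.23 and 9.56. Gnmt, a methyltransferase of glycine, was at 7.67, 10.15 and 10.97. Gli2, a transcription factor of hedgehog signaling, was at 5.88, 8.35 and 8.33. In 9 of the 17, tumor 6 was not above the floor, and Fshb was among them.

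Tumor 8 was below both others in 46 genes, and the pituitary genes Six6, Trhr and Drd2 were all among the 10 with the largest gaps. Eno3, an enolase, was at 10.34, 11.07 and 6.80, and Cd24a, a surface glycoprotein of epithelium, at 11.85, 12.30 and 8.42, with 2 further probe sets in the same order. Ccdc80, an extracellular matrix protein, was at 10.83, 11.59 and 7.37, and Thbd, thrombomodulin, at 9.75, 10.55 and 6.90. Mest, an imprinted gene of growth, was at 12.95, 13.27 and 10.86. Tumors 6 and 7 lay within 1 unit of each other in 36 of the 46 genes, and Gh, at 14.87 in tumor 8, was not lower there.

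The largest gap in this direction was that of Xist, the RNA of the inactive X chromosome, at 11.37, 11.76 and 7.62 (13.5-fold). Its other probe sets gave 9.94, 6.41 and 4.72 and 9.28, 9.19 and 5.36, lowest in tumor 8 each time. Transcripts of the Y chromosome had the reverse order, with Eif2s3y at 4.27, 4.56 and 9.42, Uty at 3.17, 2.99 and 7.38 and Kdm5d at 2.76, 2.92 and 6.54. Tumor 8 therefore differed from tumors 6 and 7 in its sex-linked transcripts as well, and sex cannot be told apart from tumor in these 3 samples.

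Proliferation genes had their highest value in tumor 6 in 15 of 21 genes above the floor in any tumor, against 28.5% of all such genes, but by little, with list medians of 7.27, 7.12 and 7.12. Mki67, the Ki-67 antigen, was at 8.28, 7.54 and 8.16, Top2a, a topoisomerase of dividing cells, at 8.13, 7.66 and 7.98, and Aurka, Aurora kinase A, at 6.40, 6.11 and 6.05. None of the 22 was variable, against 6.83% of all genes, and 4 were at a like level, against 8.45%. Inhibitors of the cell cycle differed more. Cdkn1a, the p21 inhibitor, was at 8.30, 11.26 and 10.16, Cdkn2a, the locus of p16 and p19ARF, at 6.58, 7.08 and 4.64, and Cdkn2b, p15, at 6.88, 8.21 and 6.13, with 3 of 13 genes of this list variable, against 6.83% of all genes. Ccnd1, cyclin D1, was at 11.29, 11.93 and 10.90. Among genes altered in pituitary tumors of patients, 8 of 9 were above the floor in all 3 tumors, against 60.9% of all genes. Of the 9, 0 were variable, against 6.83%. Men1, menin, was at 7.61, 7.94 and 7.84, Prkar1a, a regulatory subunit of protein kinase A, at 12.21, 12.34 and 12.03, and Pttg1, securin, at 10.13, 9.89 and 9.23. Hmga2 was below the floor throughout (3.94, 4.38 and 4.06).

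Imprinted genes gave strong signals, with 15 of 16 above the floor in all 3 tumors, against 60.9% of all genes. List medians were 11.43, 10.71 and 11.00, against 7.21 to 10.22 in the pancreatic tumors. Dlk1, a Notch-like ligand that the pituitary expresses, was at 12.25, 12.65 and 13.17, and Plagl1, a zinc finger factor, at 13.50, 14.07 and 13.71. Peg3, a further zinc finger factor, was at 12.75, 12.68 and 12.89. Other members were variable, namely 5 of 16, against 6.83% of all genes. Ndn, necdin of neurons, was at 12.59, 9.69 and 12.92, Igf2, a growth factor that meninges and choroid plexus also express, at 10.07, 7.11 and 9.87, and Grb10, an adaptor of insulin signaling, at 8.88, 10.29 and 11.14. Of 10 Notch pathway genes, 9 were above the floor in all 3 tumors, against 60.9% of all genes. Of these 10, 0 were variable, which in a list this short is near the 6.83% of all genes. Hes1, a Notch target, was at 7.21, 7.13 and 7.17.

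**Figure D5:**
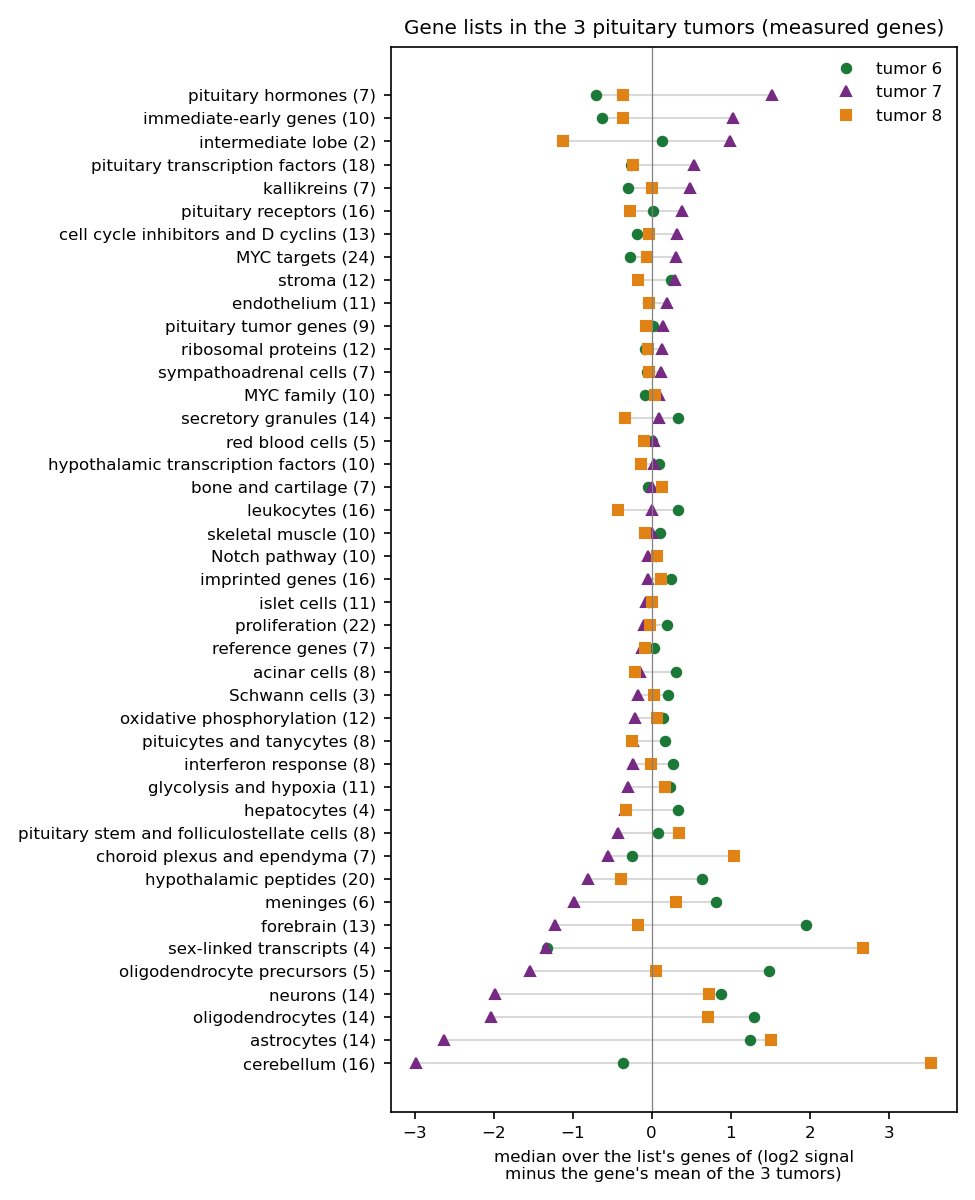
Median over the measured genes of each list (number in brackets) of the log2 signal minus the gene's mean over the 3 pituitary tumors, for tumors 6 (circles), 7 (triangles) and 8 (squares). Lists are ordered by tumor 7. Hormones and immediate-early genes are highest in tumor 7, astrocytes, oligodendrocytes, neurons, forebrain and cerebellum lowest there, and cerebellum reaches 3.54 in tumor 8.

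Vessels, stroma and blood differed less than brain. Endothelial genes were above the floor in all 3 tumors in 8 of 11, against 60.9% of all genes. Of the 11, 1 was variable, namely Cldn5, a tight junction protein of brain vessels, at 8.24, 6.07 and 8.57. Plvap, a protein of fenestrated vessels like those of the pituitary, had the other order at 8.36, 9.58 and 8.10. Stromal genes were above the floor in all 3 in 11 of 12, against 60.9% of all genes. Of the 12, 4 were variable, against 6.83% of all genes. Col1a2, a collagen chain, was at 13.41, 13.13 and 11.33, Dcn, decorin, at 10.05, 7.80 and 8.90 and Sparc at 11.79, 10.44 and 12.79. Leukocyte genes were highest in tumor 6 in 8 of 12 genes above the floor in any tumor, against 28.5% of all such genes, and the list medians were 6.79, 6.93 and 5.46. Csf1r, the receptor of macrophages and microglia, was at 10.92, 8.67 and 10.01, and Lyz2, lysozyme of macrophages, at 9.97, 9.49 and 7.00. Red cell genes were above the floor in all 3 in 1 of 5, and meningeal genes in 3 of 6, against 60.9% of all genes. Of the 6 meningeal genes, 3 were variable, against 6.83% of all genes, with list medians of 6.78, 5.31 and 6.42. Tumor 7 stood below both others in 2 of the 6, against 2.11% of all genes. Ptgds, a prostaglandin synthase of meninges and oligodendrocytes, was at 14.09, 10.08 and 13.38.

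Lists of tissues outside the pituitary and brain stayed near the floor. List medians were 6.00, 5.67 and 5.43 for pancreatic acinar cells, 6.46, 5.40 and 5.34 for hepatocytes and 5.46, 5.03 and 5.32 for sympathoadrenal cells. They were 4.59, 4.57 and 4.88 for bone and cartilage, 5.21, 5.55 and 5.02 for skeletal muscle and 5.67, 4.99 and 5.43 for Schwann cells. Single members departed from this. Pvalb, listed for muscle and also a protein of Purkinje cells, was at 10.32, 6.82 and 13.12. Dmp1, listed for bone, was at 7.53, 5.15 and 9.15. Kallikreins had list medians of 4.70, 6.41 and 5.85. Klk1b16 was at 4.03, 7.49 and 5.85 and Klk1b27 at 4.97, 7.84 and 5.87, both highest in tumor 7, but these genes are close copies of each other and their probe sets may read more than 1 of them. Klk1, the tissue kallikrein, was at 6.97, 7.56 and 7.29.

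Genes of cell state and reference genes completed the picture. Glycolysis and hypoxia genes had list medians of 9.93, 8.63 and 10.21. Ndrg1, a hypoxia gene that oligodendrocytes also use, was at 9.93, 8.63 and 10.21 itself, and Hk2, a hexokinase, at 6.44, 8.32 and 7.60. Interferon response genes had list medians of 5.92, 5.29 and 5.67, with 0 of 8 variable, against 6.83% of all genes. Reference genes were above the floor in all 3 tumors in 7 of 7, against 60.9% of all genes. B2m, the light chain of class I molecules, was the variable one at 10.77, 11.50 and 13.46. Actb was at 13.88, 13.29 and 13.45. The list medians for ribosomal proteins were 13.47, 13.70 and 13.40, and those for oxidative phosphorylation 12.40, 11.96 and 12.31. Cdh2, N-cadherin, was at 10.61, 9.94 and 10.58, while Cdh1, E-cadherin, was at a like level of 7.00, 7.13 and 6.96.

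The differences were read again from further oligonucleotides of the same genes. Of the 716 calls of a tumor standing apart, 420 had a second probe set, which gave the same tumor in the same direction by at least 1 unit in 245 (58.3%) and the same direction by any amount in 356 (84.8%). The share was between 55.2% and 62.5% in the 6 patterns. Among the hormone genes, Cga, Tshb and Fshb had no second probe set with a single symbol, so that their order rests on 1 probe set and 1 array per tumor.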

How the data were processed

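RNA from each tumor was hybridized to 1 Affymetrix MG-430_2.0 array. The deposited values are log2 signals that the authors had already normalized, with Partek or RMA, both of which the methods name without saying which gave this table. They were used as deposited. Of 45101 probe sets, 64 controls were left out. Platform annotation gave 1 symbol to 34945, several to 932 and none to 9160 probe sets in the table used, and 34741 matched RefSeq by Entrez identifier. A gene was represented by its single-symbol probe set of highest mean over the 3 tumors.

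The members, the 43 lists (504 genes) and the thresholds were chosen with earlier results of these data known, and the cerebellum and forebrain lists after these values had been seen. Named were the 15 genes of highest mean, hormones and their transcription factors, up to 6 members of each other list, up to 10 genes per tumor and direction by gap, the 10 most alike among bright genes, and genes that the paper names. A few others (Camk2a, Calcr, Kcnj13 and the like) were chosen after their values were seen. Promoter windows came from RefSeq. No test was made, since each tumor had 1 array. Counting steps were checked on simulated data. Calculations ran in Python 3.11.15 (pandas 2.3.3, numpy 2.4.6), and plots in matplotlib 3.10.9. Alternatives were other normalizations, probe set choices, floors and thresholds, and leaving out each tumor.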

Additional observations from a re-analysis of the deposited data

How the results depend on the processing

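The number of arrays, 1 for each of 3 tumors, limits the precision, and the floor hides differences between weak genes. Of the alternatives to the counts and similarities, 47 stayed close to the values given (counts within 1.5 times) and 29 moved, and of the list shifts of tumor 7 against tumors 6 and 8, 118 stayed and 11 moved, mainly where probe sets were averaged. Quantile normalization and median centring moved none of the counts by over 1.5 times. When all probe sets of a gene were averaged, tumor 6 was below both others in 11 genes and tumor 7 in 246. With the 75th percentile as floor, 5866 genes were above it in all 3 tumors and 862 were at a like level, and without a floor 3288 were. With 2 times the threshold, 4454 genes were at a like level and 221 variable, and with the threshold divided by 2 these were 437 and 3719. Among probe sets above the 75th percentile, r was 0.779 for tumors 6 and 7, 0.902 for 6 and 8 and 0.739 for 7 and 8. Second probe sets had the same direction by any amount in 84.8%. Leaving out 1 tumor gave 3721 to 4849 like-level and 339 to 856 variable genes, and the 339 was without tumor 7. In pairs that remained, tumor 6 was above in 181 to 625 genes and below in 131 to 158, tumor 7 above in 131 to 221 and below in 625 to 635, and tumor 8 above in 158 to 635 and below in 181 to 221, since 1 comparison then replaces 2. No paired analysis was possible because the labels give the tumors different numbers and each is a single array.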
